A study of Danio rerio with 6 samples.

Results

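The genes described here shut off the light response of photoreceptors: the opsin kinases grk7a, grk7b, grk1a and grk1b, the recoverins rcv1, rcvrn2 and rcvrn3, and the RGS9 genes rgs9a and rgs9b with their membrane anchor rgs9bp. They were chosen by symbol for these roles, with earlier results of these data known. Of the 10 symbols, 7 were entries of a table of 14781 genes measured in sorted eye cells of zebrafish (Danio rerio) larvae. The entry zgc:73075 was added because RefSeq (assembly GRCz12tu) lists that name as an older symbol of rcvrn3. RefSeq gives rcv1 as an older symbol of rcvrn2, so these 2 symbols were taken as 1 gene. No entry was taken for rgs9bp, which is not analysed here. In all, 8 genes are described.

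The libraries were made at 5 days post-fertilization from cells that carried thrb:tdTomato, a red fluorescent reporter named for the thyroid hormone receptor gene that marks red cones, and that were collected by fluorescence-activated cell sorting. There were 3 libraries labelled samd7-/-, from crosses of parents that were both homozygous for the stl888 allele of samd7, a gene for a photoreceptor protein that acts with Polycomb repressive complexes, and 3 WT libraries from crosses of WT parents. In each cross 1 parent carried the reporter, and fluorescent larvae of both genotypes were used. Each library came from its own clutch and pooled 40 to 50 eyes of 20 to 25 larvae, and a subset of each clutch was genotyped. The genotypes had different parents, so genotype and parental line cannot be told apart.

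Light-activated opsin goes on signalling until it is phosphorylated and capped. Opsin kinases of the GRK1 and GRK7 families add the phosphates, and arrestin then binds the phosphorylated opsin. Recoverin, a calcium sensor, holds the kinase back while calcium is high, as it is in darkness, and releases it when light lowers calcium. RGS9, in a complex with the G protein subunit Gβ5, speeds the hydrolysis of GTP by transducin and so ends the activation of phosphodiesterase. In zebrafish cones grk7a is needed for a normal recovery after light.

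Reads recovered from the table summed to between 18418834 and 20369266 in the samd7-/- libraries, and to between 13435570 and 18911482 in WT. The samd7 transcript itself was higher in the samd7-/- libraries, at 24329 ± 543 normalized counts, against 7683 ± 896 in WT (SD, n = 3 each, as for all levels below). What the allele does to the transcript is not given in the labels, and the genotype cannot be checked by this level. On the first principal component, samd7-/- library 3 lay at -112, against -22.1 and -24.4 for the others of its group. WT library 2 lay at 88.9, against 24.9 and 44.9. On the second component these 2 libraries lay together, at -75.0 and -75.5, against 5.15 to 66.1 for the others. The first component held 29.0% of the variance and the second 22.8%. Cone genes marked both genotypes: gnat2, the cone transducin gene, had at least 86335 normalized counts in each samd7-/- library and at least 161235 in each WT library. Normalized counts are read counts divided by a size factor of the library. A gene counts as changed below where limma, fitted over 9886 genes, gave a Benjamini-Hochberg adjusted p under 0.05.

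Most of the shut-off genes fell together. Of the 8 genes, all of which passed the filter on low values, grk7a, grk1b, rcv1, zgc:73075 and rgs9a were lower in the samd7-/- libraries, grk7b was higher, and grk1a and rgs9b did not pass the test. Of all genes tested 5.17% changed, with 3.90% lower and 1.26% higher. Among 485 genes averaging 5000 normalized counts or more, a level chosen after the values were seen, 26.0% were lower. All 5 of the described genes at that level were lower. The genotypes did not overlap for 6 of the 8 genes, as was so for 24.5% of all genes tested. The median log2 difference, samd7-/- minus WT, was -1.08 over the 8 genes and 0.05 over all genes tested. Over the 485 genes averaging 5000 normalized counts or more it was -0.18. In sorted cells a smaller cone share, another mix of cone types and less RNA of a gene per cone cannot be told apart. The plot of levels by library shows the 6 libraries of each gene.

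**Figure D1:**
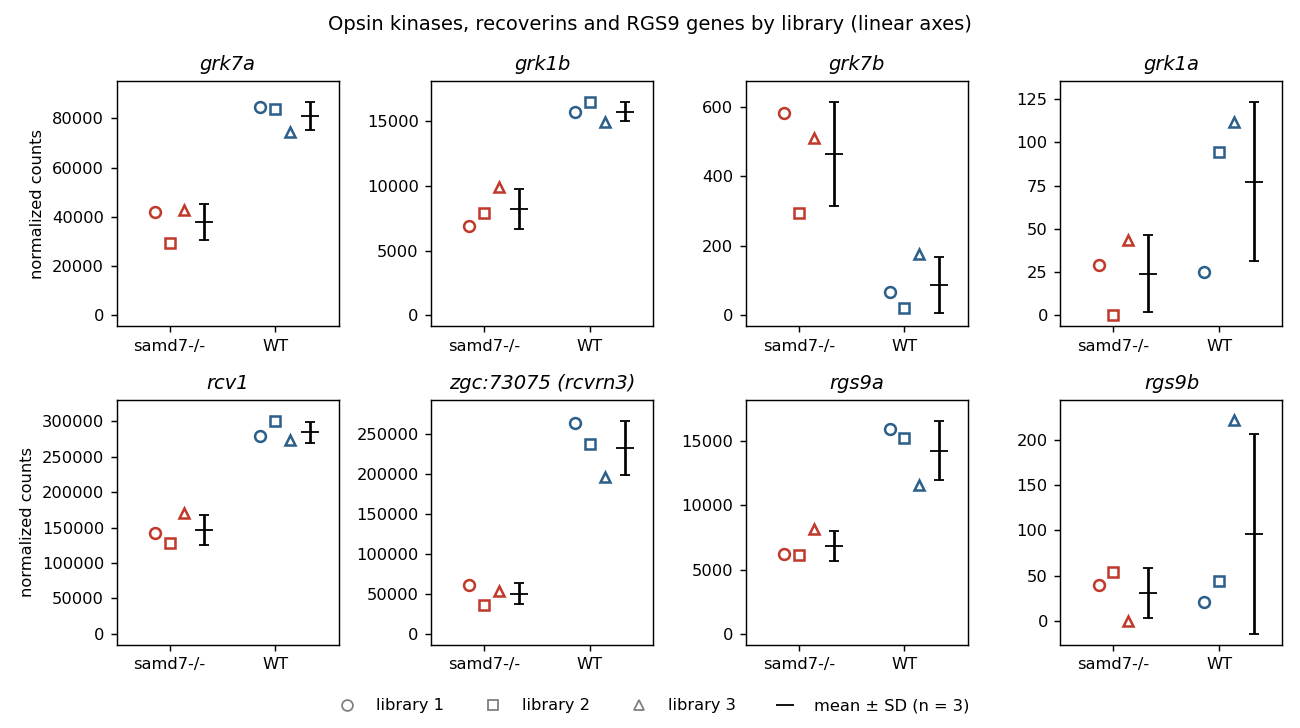
Normalized counts of the 8 genes in each library, on linear axes, with the 3 samd7-/- libraries (red) left of the 3 WT libraries (blue) and the mean ± SD of each group in black. For grk7a, grk1b, rcv1, zgc:73075 and rgs9a each samd7-/- library lies below each WT library, for grk7b each lies above, and for grk1a and rgs9b the groups overlap.

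The abundant opsin kinases fell. The cone opsin kinase grk7a had 41876, 29553 and 42720 normalized counts in samd7-/- libraries 1 to 3, against 84655, 83702 and 74534 in WT libraries 1 to 3. The lowest WT library was thus above the highest samd7-/- library. Its mean was 38050 ± 7370 in the samd7-/- libraries and 80964 ± 5589 in WT, a log2 difference of -1.11 (95% interval -1.47 to -0.74, adjusted p = 0.00164). For grk1b, a copy of the GRK1 kinase, the levels were 6880, 7942 and 9921 in the samd7-/- libraries, against 15739, 16457 and 14977 in WT. All 3 WT libraries lay within a narrow range, and the samd7-/- libraries spread more widely below it. The mean was 8248 ± 1543 in the samd7-/- libraries and 15724 ± 740 in WT (log2 difference -0.95, 95% interval -1.32 to -0.57, adjusted p = 0.00573).

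The other copy of GRK7 went the opposite way. Normalized counts of grk7b were 583, 295 and 511 in the samd7-/- libraries, against 67.4, 20.5 and 176 in WT. These rest on 706, 395 and 586 reads in the samd7-/- libraries and on 56, 21 and 132 reads in WT. Every samd7-/- library was above every WT library, and within WT library 2 was the lowest and library 3 the highest. The mean was 463 ± 150 in the samd7-/- libraries and 87.8 ± 79.6 in WT. The log2 difference was 2.80 (95% interval 1.31 to 4.30, adjusted p = 0.0332), and the log2 ratio of the 2 means was 2.40. This call was not firm. It was lost with edgeR's quasi-likelihood test on recovered reads (log2 difference 2.41, adjusted p = 0.0896), kept with DESeq2 (adjusted p = 0.00838), and lost in 5 of the 6 fits that left out 1 library. Those were the fits without samd7-/- libraries 1, 2 and 3 (adjusted p = 0.148, 0.0605 and 0.0806) and without WT libraries 1 and 2 (adjusted p = 0.0870 and 0.0838). Leaving out WT library 2 gave a log2 difference of 2.02, and leaving out WT library 3 gave 3.54. In the authors' deposited table grk7b had a log2 fold change of 2.40 and an adjusted p of 0.0115.

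The remaining kinase, grk1a, another copy of GRK1, was scarce. It had 28.9, 0 and 43.6 normalized counts in the samd7-/- libraries, against 25.3, 94.6 and 112 in WT. In samd7-/- library 2 a count of 0 allows a level of up to 2.24 normalized counts, when 3 reads are taken as the limit of a count of 0. The groups overlapped: WT library 1 lay below samd7-/- libraries 1 and 3. The log2 difference of -2.58 did not pass the test (95% interval -6.08 to 0.93, adjusted p = 0.437), and it moved to -0.85 without samd7-/- library 2. Its libraries held between 0 and 97 reads, and with an interval that included 0 its direction was undetermined.

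Within the kinases, the share of reads that fell to each gene does not depend on library scaling. Gene length was not taken into account, so each share is compared between genotypes only. The share of grk7b was 1.18%, 0.781% and 0.960% in the samd7-/- libraries, against 0.0670%, 0.0204% and 0.196% in WT. The smallest samd7-/- share was above the largest WT share. For grk7a the share was 81.1% ± 3.38 in the samd7-/- libraries and 83.6% ± 0.628 in WT, and for grk1b 17.9% ± 3.60 in the samd7-/- libraries and 16.3% ± 0.527 in WT, with overlap for both. Kinase reads summed to 46785 ± 8021 normalized counts in the samd7-/- libraries, against 96853 ± 6111 in WT. The total thus moved with grk7a and grk1b, and grk7b stayed a small part of it in every library. The log2 ratio of grk7b over grk7a was -6.16, -6.64 and -6.38 in the samd7-/- libraries, against -10.3, -11.9 and -8.72 in WT. It differed by 3.91 between the genotypes, with no overlap. An exact two-sided permutation test gave p = 0.1, which is the lowest value possible with 3 libraries in each group, and 0.2 when adjusted over the 4 ratios computed, so a p under 0.05 was out of reach. The ratio of grk1b over grk1a overlapped between the genotypes (difference 1.63, exact permutation p = 0.5, adjusted p = 0.667).

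Both recoverins fell, with the more negative log2 difference for zgc:73075. Levels of zgc:73075, the older name of rcvrn3, were 60961, 35925 and 54002 in the samd7-/- libraries, against 264666, 237505 and 197053 in WT. The groups lay far apart, with the lowest WT library well above the highest samd7-/- library. The mean was 50296 ± 12923 in the samd7-/- libraries and 233075 ± 34023 in WT, 4.63-fold higher in WT. Its log2 difference was -2.24 (95% interval -2.66 to -1.82, adjusted p = 1.87e-05). For rcv1 the levels were 142706, 127487 and 169911 in the samd7-/- libraries, against 278653, 300511 and 273183 in WT. Here too no samd7-/- library reached a WT library, with a smaller gap. The mean was 146701 ± 21492 in the samd7-/- libraries and 284116 ± 14460 in WT (log2 difference -0.96, 95% interval -1.28 to -0.64, adjusted p = 0.00175).

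The ratio of the pair within each library separated the genotypes. The log2 ratio of zgc:73075 over rcv1 was -1.23, -1.83 and -1.65 in the samd7-/- libraries, against -0.07, -0.34 and -0.47 in WT. The groups did not overlap, and the difference was -1.27 (two-sided exact permutation p = 0.1, the smallest possible here, adjusted p = 0.2). Of the reads of the pair, zgc:73075 took 25.3% ± 4.11 in the samd7-/- libraries and 44.9% ± 3.47 in WT. Together the pair had 196997 ± 30797 normalized counts in the samd7-/- libraries, against 517190 ± 40750 in WT. The recoverin copy rcvrna, which was not among the listed symbols, had 6436 ± 679 in the samd7-/- libraries and 8579 ± 884 in WT. Its log2 difference of -0.42 did not pass the test (95% interval -0.78 to -0.05, adjusted p = 0.195), although the groups did not overlap.

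**Figure D2:**
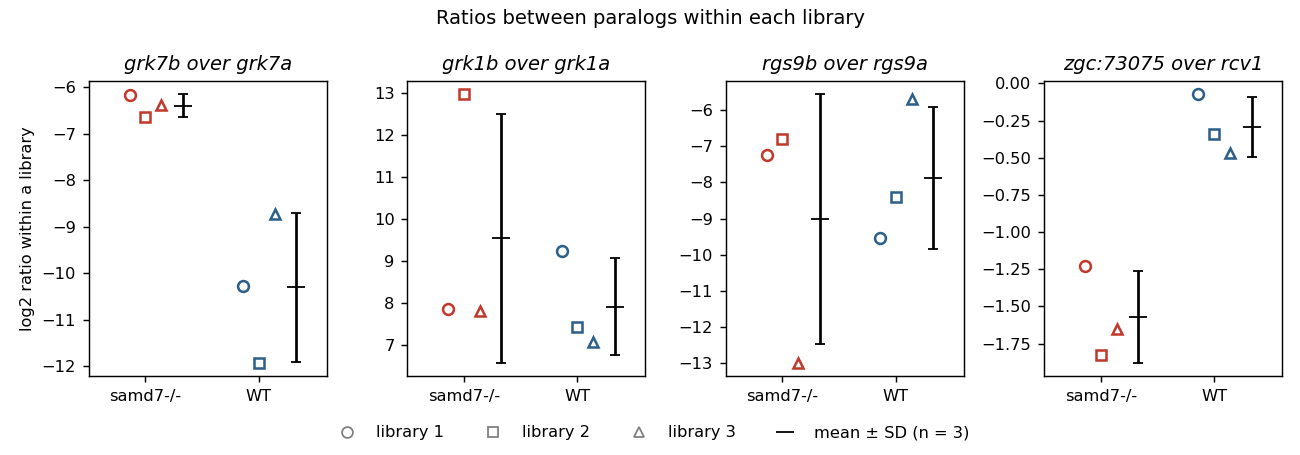
Log2 ratio of the normalized counts of paired genes within each library, after adding 1, with the samd7-/- libraries (red) left of WT (blue) and the mean ± SD in black. The ratios of grk7b over grk7a and of zgc:73075 over rcv1 separate the genotypes. Those of grk1b over grk1a and of rgs9b over rgs9a overlap, with 1 library far from the others of its group in each.

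Of the RGS9 genes, rgs9a fell and rgs9b, at 0 to 167 reads a library, did not pass the test. The levels of rgs9a, which encodes the GTPase-activating protein of the complex, were 6171, 6106 and 8164 in the samd7-/- libraries, against 15890, 15251 and 11600 in WT. WT library 3 was the lowest of its group and still above samd7-/- library 3, the highest of the other. The mean was 6814 ± 1170 in the samd7-/- libraries and 14247 ± 2315 in WT (log2 difference -1.06, 95% interval -1.46 to -0.66, adjusted p = 0.00410). The second copy, rgs9b, had 39.6, 53.8 and 0 normalized counts in the samd7-/- libraries, against 20.4, 43.9 and 222 in WT. WT library 3 alone was high, and the 0 of samd7-/- library 3 allows up to 2.62 normalized counts. Its log2 difference of -2.20 did not pass (95% interval -5.86 to 1.46, adjusted p = 0.541) and moved to -0.34 without samd7-/- library 3. The ratio of rgs9b over rgs9a overlapped between the genotypes (difference -1.13, exact permutation p = 0.8, adjusted p = 0.8).

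The subunit that RGS9 binds moved with rgs9a. The Gβ5 gene gnb5b had 7999, 7632 and 9726 normalized counts in the samd7-/- libraries, against 25308, 22095 and 22478 in WT. No samd7-/- library came near a WT library. The log2 difference was -1.47 (95% interval -1.82 to -1.12, adjusted p = 0.000143). The scarce copy gnb5a had 81.9 ± 23.8 in the samd7-/- libraries and 22.9 ± 26.0 in WT, and its log2 difference of 2.67 was not called (95% interval -0.35 to 5.69, adjusted p = 0.334).

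The 5 genes that fell kept their calls in all 16 other ways of processing, with adjusted p up to 0.0226 for grk7a, 0.0462 for grk1b, 0.0477 for rcv1, 0.00132 for zgc:73075 and 0.0366 for rgs9a. Without samd7-/- library 3 their log2 differences were between -2.31 and -1.07, and without WT library 2 between -2.22 and -0.91. Scaling by library totals in place of the deposited size factors moved the median of all genes by 0.23 on the log2 scale, and the 5 log2 differences then lay between -2.01 and -0.71. With it 415 genes were higher and 252 lower, against 125 higher and 386 lower with the deposited size factors. The log2 differences of the 8 genes kept their signs under that scaling.

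**Figure D3:**
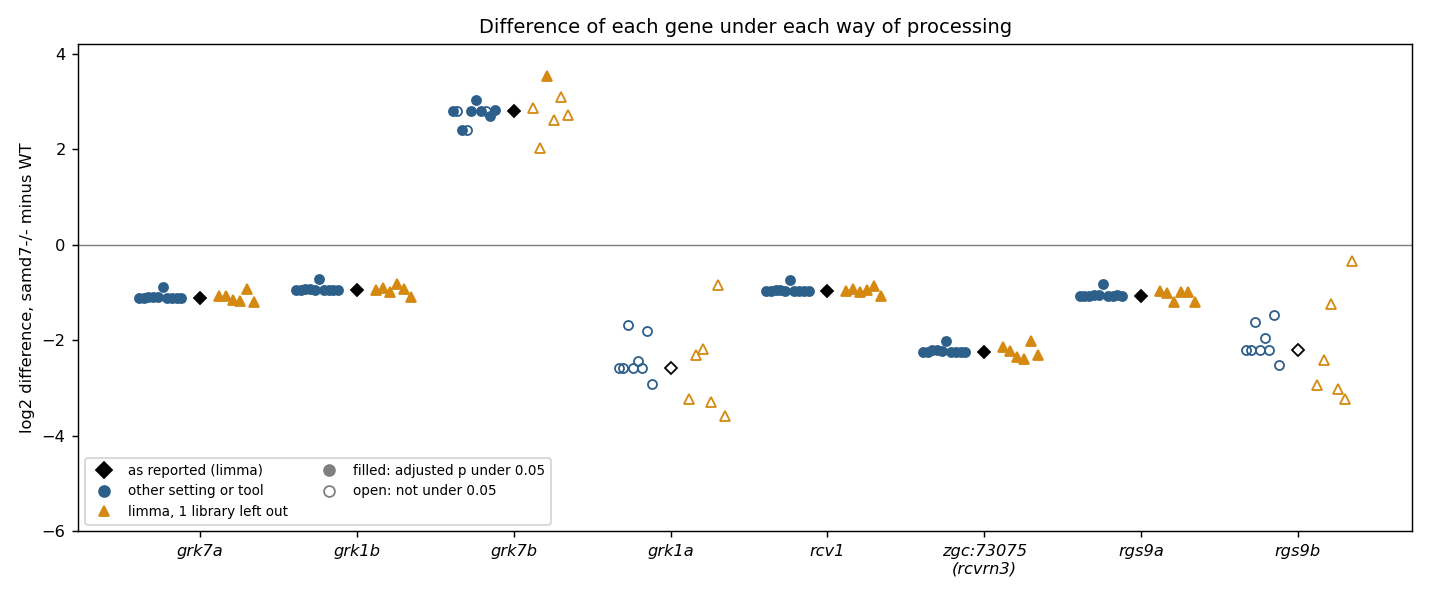
Log2 difference, samd7-/- minus WT, of each gene as reported (black diamonds), under other settings and tools (blue circles) and with 1 library left out (orange triangles). Filled symbols have an adjusted p under 0.05. The 5 genes that fell stay filled throughout, grk7b stays above 0 but is open in 8 of 16 alternatives, 3 of them circles, and grk1a and rgs9b are open and spread widely.

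The other genes of shut-off and calcium feedback were read for comparison. Of all genes tested 3.90% were lower and 1.26% higher, and of those averaging 5000 normalized counts or more 26.0% were lower. Of 14 shut-off and feedback genes tested from a list of 19 symbols, 6 fell and 1 rose, with a median log2 difference of -0.90. Besides gnb5b, these were the arrestins and several calcium-feedback genes. The cone arrestin arr3a had 6695 ± 2174 normalized counts in the samd7-/- libraries and 492134 ± 121241 in WT (log2 difference -6.23), and arr3b had 511776 ± 156293 in the samd7-/- libraries and 7253 ± 2943 in WT (log2 difference 6.20). The guanylate cyclase activating proteins guca1c, guca1d and guca1g fell by 1.07, 1.69 and 0.85 on the log2 scale, and slc24a2, the sodium, calcium and potassium exchanger of cones, fell by 0.94. Calls were lost for guca1c without WT library 1 or 2 (adjusted p up to 0.0595), and for slc24a2 without samd7-/- library 2 or WT library 1 or 2 (up to 0.111). With edgeR 4 of the 6 remained called in this direction, with guca1g (adjusted p = 0.0825) and slc24a2 (adjusted p = 0.0510) lost. For guca1g the call was also lost with scaling by library totals (adjusted p = 0.0905), without the filter on low values (0.0642), without limma's robust option (0.0502) and without samd7-/- library 1 or 2 or WT library 2 or 3 (up to 0.186). For gc3, a cone guanylate cyclase, the log2 difference was -0.57 (adjusted p = 0.134), which is not a call.

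The activation cascade was read in the same way, beside 3.90% lower of all genes tested and 26.0% of those averaging 5000 normalized counts or more. Of 7 genes tested from a list of 13 symbols, 4 fell, with a median log2 difference of -0.72. These were the cone transducin genes gnat2 (-0.72, adjusted p = 0.0182) and gnb3b (-0.75, adjusted p = 0.0345) and the cone phosphodiesterase genes pde6c (-0.89, adjusted p = 0.00957) and pde6h (-1.96, adjusted p = 0.00146). The number that fell was 2 with edgeR and between 1 and 4 in fits that dropped 1 library. The calls of gnat2 and gnb3b were lost without samd7-/- library 1 or any WT library (adjusted p up to 0.126 and 0.213), and for gnb3b also without samd7-/- library 2. They were lost for pde6c without samd7-/- library 1 or WT library 1 or 2 (up to 0.0742), and for pde6h without samd7-/- library 3 (0.107). The transducin genes gngt2a and gngt2b did not pass, with log2 differences of 0.26 and -0.69. Whether the shut-off genes fell further than these was not tested. The plot of differences along the cascade sets all of them side by side.

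**Figure D4:**
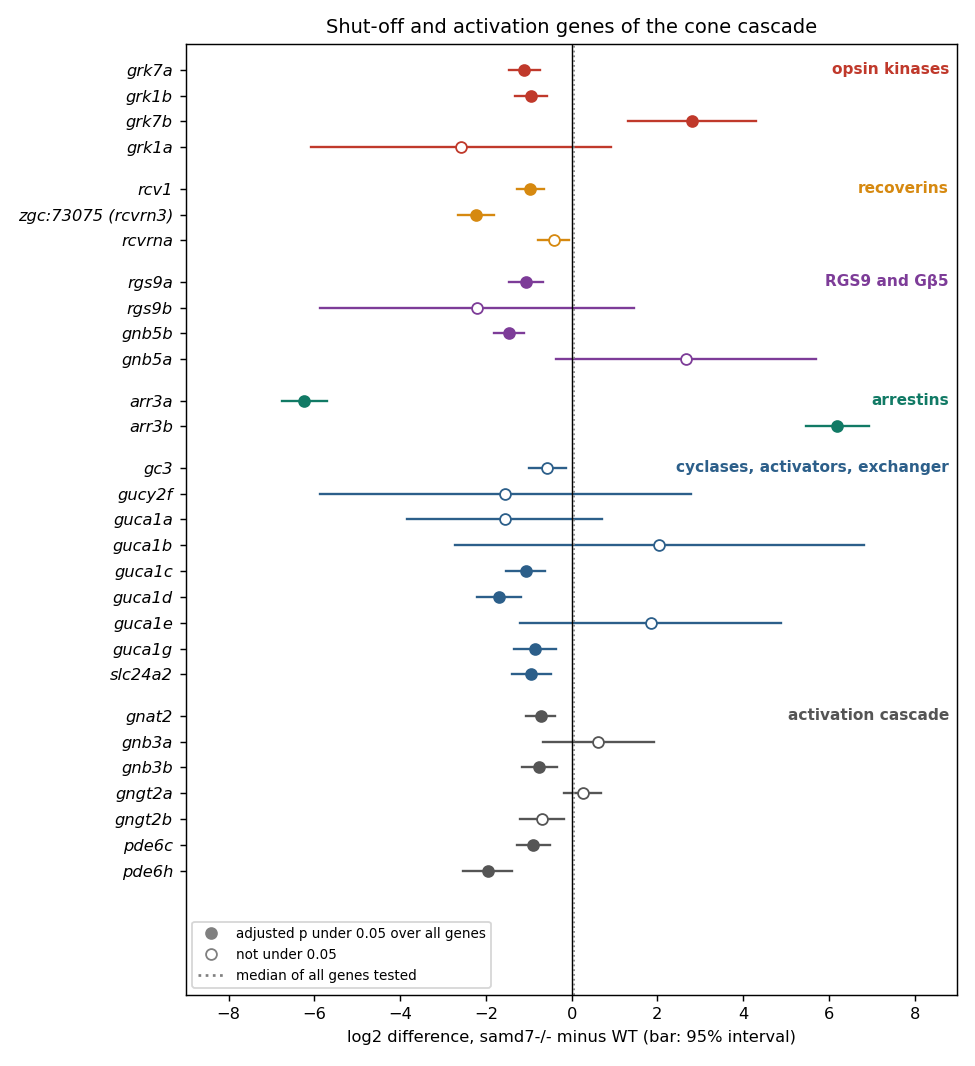
Log2 difference, samd7-/- minus WT, of tested genes of cone shut-off and activation, grouped by role, with bars for the 95% interval. Filled points had an adjusted p under 0.05 over all genes, and the dotted line is the median of all genes tested. Of the opsin kinases grk7b alone lies above 0, zgc:73075 lies furthest below 0 among the recoverins, and the arrestins lie at opposite ends.

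Relatives of these genes that were not among the listed symbols were read on 3 lists of 9 symbols each, beside the 5.17% of all genes tested that changed. Of 2 tested G protein-coupled receptor kinases other than the opsin kinases, 0 changed with limma (1 at an unadjusted p under 0.05) and 0 with edgeR. DESeq2 called neither and gave no adjusted p for grk4. The most abundant, adrbk2, had 203 ± 43.1 normalized counts in the samd7-/- libraries and 410 ± 54.0 in WT (log2 difference -1.03, adjusted p = 0.170), and grk4 had the largest log2 difference, -2.18 (adjusted p = 0.520). Of 5 tested neuronal calcium sensors, the protein family of recoverin, ncaldb alone changed. It had 24005, 16057 and 21994 in the samd7-/- libraries, against 53851, 43928 and 37742 in WT (log2 difference -1.13, adjusted p = 0.00290). The largest log2 difference of that list, 2.88 for hpca, did not pass (adjusted p = 0.302). Of 5 tested genes of the R7 group of RGS proteins and their anchors, other than RGS9, 0 changed with limma (0 at an unadjusted p under 0.05) and 0 with edgeR, and DESeq2 gave no adjusted p for any of them. These 5 were scarce, summing to 235 to 267 normalized counts in the samd7-/- libraries and 129 to 237 in WT. At such levels 0 calls do not show that they were unchanged. The most abundant was rgs7a (log2 difference 1.53, adjusted p = 0.279), and rgs7bpb had the largest log2 difference, -2.46 (adjusted p = 0.640).

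Markers of cell types moved between the same libraries, beside 3.90% lower and 1.26% higher of all genes tested. Of the genes averaging 5000 normalized counts or more, 26.0% were lower. Of 6 markers shared by cones 3 fell, the activation genes gnat2, pde6c and pde6h named above. The 6 summed to 415096 to 723004 normalized counts in the samd7-/- libraries and 1501813 to 1647746 in WT, with pde6h the largest part. The other 3 did not pass: gngt2b, crx (log2 difference -0.29, adjusted p = 0.437) and otx5 (-0.33, adjusted p = 0.288). Of 4 genes listed as red-cone markers 2 fell (arr3a and the opsin opn1lw2) and 1 rose (the opsin opn1lw1). The 4 summed to 526721 to 1048377 normalized counts in the samd7-/- libraries and 1961665 to 2148259 in WT, with opn1lw2 the largest part. The remaining marker was thrb, for which the sorting reporter is named. It had 10677 ± 604 in the samd7-/- libraries and 14152 ± 2052 in WT. Its log2 difference of -0.398 did not pass the test (adjusted p = 0.1999), although the groups did not overlap. Of 4 genes listed as UV-cone markers 3 rose. The 4 summed to 1407808 to 2162917 normalized counts in the samd7-/- libraries and 11630 to 56582 in WT. The largest part was the opsin opn1sw1, which did not pass with limma. Whether arr3a marks red cones alone, or arr3b UV cones alone, was not tested. Of 8 horizontal-cell markers tested 4 rose (39576 to 42845 in the samd7-/- libraries, 22106 to 25806 in WT), with ompb at 0 in every library. The amacrine list had 2 of 8 higher (20595 to 22840 in the samd7-/- libraries, 14994 to 21874 in WT), the Müller glia list 1 of 7 (49729 to 80915 in the samd7-/- libraries, 31989 to 41548 in WT) and the list of dividing cells 2 of 6 (14553 to 14822 in the samd7-/- libraries, 7544 to 10304 in WT). Of 4 pineal photoreceptor markers 1 rose, the opsin exorh, at 112 to 552 normalized counts in the samd7-/- libraries, against 0 to 3.99 in WT (adjusted p = 0.0223), and the list summed to 5225 to 7737 in the samd7-/- libraries and 5585 to 6593 in WT. Not all of these calls were firm. Of 16 alternatives, the 4 horizontal-cell calls were kept in 8 to 16 and the 2 amacrine calls in 9 and 16. The Müller glia call was kept in 15, and the 2 calls of dividing cells in 12 each. The exorh call was kept in 12 of the 13 alternatives that gave a value. That gene met the filter on low values through the samd7-/- libraries alone, so only a rise could be called. Scaling by library totals made 415 genes higher and 252 lower of all genes. With it 3 UV-cone, 6 horizontal-cell, 2 amacrine, 2 Müller glia, 4 dividing-cell, 1 pineal and 1 rod marker were higher, and 0 red-cone markers. Lower under that scaling were 2 red-cone markers and 3 of those shared by cones. Of 9 rod markers 0 passed with limma (2 at an unadjusted p under 0.05) and 0 with edgeR. With DESeq2, which called 870 of all genes, 2 passed. These 2 went opposite ways, gnb1b higher (limma log2 difference 0.73) and saga lower (-1.67). The 9 rod markers summed to 25273 to 74416 in the samd7-/- libraries and 20261 to 94223 in WT. Among the 9 rho, the rod opsin, was high in samd7-/- library 3 and WT libraries 2 and 3, at 53889 normalized counts or more, and at 9063 or less in the others. The bipolar-cell list summed to 1265 to 1649 in the samd7-/- libraries and 428 to 968 in WT, with 0 of 8 markers called by limma, 2 at an unadjusted p under 0.05, 0 by edgeR and 1 by DESeq2. Ganglion-cell markers summed to 661 to 1101 in the samd7-/- libraries and 385 to 666 in WT, and those of the retinal pigment epithelium to 152 to 462 in the samd7-/- libraries and 80.0 to 474 in WT. With limma and with edgeR 0 of these 6 and 4 markers changed, with 1 and 0 at an unadjusted limma p under 0.05. The part of these cell types in the levels of the kinases, recoverins and RGS9 genes was not tested.

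The opsins that the kinases act on changed as well. Of 7 visual opsins tested 3 fell and 1 rose, beside 3.90% lower and 1.26% higher of all genes tested. Of the genes averaging 5000 normalized counts or more, 26.0% were lower. The one that rose, the red-cone opsin opn1lw1, had between 7727 and 47846 normalized counts in the samd7-/- libraries, against 1620 to 2754 in WT (log2 difference 3.29, adjusted p = 0.0459). Its call was kept in 11 of 16 alternatives. Among the losses were the fits without samd7-/- library 3 or WT library 2 or 3 (adjusted p up to 0.179) and scaling by library totals. Of the 3 that fell, the red-cone opsin opn1lw2 had between 500401 and 1010645 normalized counts in the samd7-/- libraries, against 1479085 to 1693387 in WT (log2 difference -1.29, adjusted p = 0.00510). The opn1lw2 call was lost without limma's robust option (adjusted p = 0.113) and kept in the other 15 alternatives. The green-cone opsins opn1mw1 and opn1mw2 had 0 reads in each samd7-/- library, against 27237 to 119926 and 419 to 2706 normalized counts in WT. Both met the filter on low values through the WT libraries alone, so only a fall could be called. Each call was kept in all 13 alternatives that gave a value. The UV-cone opsin opn1sw1 had 816560 to 1684468 in the samd7-/- libraries and 3982 to 44596 in WT, and its log2 difference of 5.91 did not pass with limma (adjusted p = 0.0720) and passed with edgeR (adjusted p = 0.00462). The blue-cone opsin opn1sw2 had 12627 to 68020 normalized counts in the samd7-/- libraries and 3902 to 10982 in WT. The groups did not overlap, but its log2 difference of 1.90 did not pass with limma (adjusted p = 0.230). It passed in 1 of 16 alternatives. No test linked the kinases to an opsin.

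Genes with the most similar pattern were looked up for the 6 genes that changed, among 7325 other genes averaging 100 normalized counts or more, by Pearson's r of log2(value + 1) over the 6 libraries. A shared difference between the genotypes alone gives a high r, so these are descriptions of the pattern. For zgc:73075 they were gadd45ba (r = 0.998), wbp2 (0.996) and sh3gl2 (0.996), and for rcv1 eml1, rp2 and nptx1l (each 0.998). For grk7a they were gadd45ba (0.997), atp6v1ba (0.996) and icmt (0.995), and for grk1b lmbrd1 (0.997), znrf2b (0.996) and bc2 (0.995). For rgs9a they were pdcb (0.996), cox4i2 (0.993) and slc9a3r1 (0.993), and for grk7b eif4g1a (0.995), strn (0.993) and eif2s1b (0.992). Not every gene named here changed between the genotypes. With limma znrf2b, bc2 and slc9a3r1 did not pass (adjusted p = 0.174, 0.0954 and 0.240). Nor did the genes named for grk7b, eif4g1a, strn and eif2s1b (adjusted p = 0.0990, 0.0846 and 0.238). The gene pdcb encodes a phosducin, a protein of photoreceptors that binds the βγ subunits of transducin.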

How the data were processed

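RNA of sorted cells was amplified and sequenced as paired-end reads of 150 bases, per the labels' protocols. The submitters' processing notes name HTSeq 0.9.1, STAR 2.7.2b, Trim Galore 0.6.1, R 4.1.3 and DESeq2 1.34.0, with the build danRer10. The annotation, the strand setting and how reads common to paralogs were counted were not stated there or in the labels, so reads of near-identical copies and of overlapping genes may be split uncertainly. The values that the authors deposited for each library are a signal: reads per gene over the size factor of that library. In each library 100% of values above 0 were whole multiples of 1 read to within 0.01. Per gene, the authors also deposited their log2 fold change with its adjusted p-value. With edgeR on the recovered reads 379 genes changed.

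Values were fitted as log2(value + 1) with limma 3.58.1 (trend and robust options, R 4.3.3), with genotype as the only term, for genes that reached 10 normalized counts in 3 or more libraries. Fold changes are on this log2(value + 1) scale. For low genes they can differ from the log2 ratio of the 2 means, which was -1.68 for grk1a, -1.62 for rgs9b and 2.40 for grk7b, since a library near 0 weighs heavily on the log scale. Recovered reads were tested with edgeR 4.0.16 (quasi-likelihood, TMM) and DESeq2 1.42.0 as alternatives. Ratios were compared by exact permutation. The members and lists were chosen with earlier results of these data known. Every member is named. Of the lists of shut-off and feedback and of the activation cascade each changed gene is named. Of the lists of relatives and of visual opsins the most abundant gene and that with the largest difference are named. Markers of cell types were counted by list, and not every changed marker is named. The rod list held 16 symbols. Of 13 tested 0 changed with limma, beside 5.17% of all genes tested. Its largest log2 difference, -3.55, did not pass (adjusted p = 0.250). Genes named outside this rule (rcvrna, gnb5a, gc3, gngt2a, gngt2b, samd7, ompb, opn1lw1, opn1mw2, opn1sw1, opn1sw2, exorh, rho, crx, otx5, thrb, gnb1b and saga) were chosen after their values were seen. Limits of a count of 0 cover counting error only, since 14 and 15 cycles of amplification preceded sequencing.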

Additional observations from a re-analysis of the deposited data

How the results depend on the processing

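The log2 difference of each of the 8 genes kept its sign in every alternative that gave a value. For grk1a and rgs9b 0 of the 14 alternatives with an adjusted p passed. Their 95% intervals included 0, so their direction stays undetermined. For grk7b the log2 difference was 2.81 with an adjusted p of 0.0516 without a filter on low values and of 0.0502 without limma's robust option, 2.41 with edgeR, and 2.02 to 3.54 with 1 library left out. DESeq2 gave no adjusted p for grk1a and rgs9b, and a filter at 50 normalized counts left both out. Of all genes 511 changed, against 870 with DESeq2 and 219 to 580 with 1 library left out. The number higher was 415 with scaling by library totals, 325 with DESeq2 and 38 to 125 with 1 library left out, and the number lower was 252 with library totals and 181 to 455 with 1 library left out. Scaling by library totals put 62.2% of changed genes higher, against 24.5%. The 6 shut-off and feedback genes that fell became 3 to 7 with 1 library left out. The 4 genes of the activation cascade became 2 with edgeR, 2 without the robust option, 2 with the replicate block and 1 to 4 with 1 library left out. The ratio of grk1b over grk1a ranged from -0.081 to 2.50 with 1 library left out, with -0.081 without samd7-/- replicate 2. That of rgs9b over rgs9a ranged from -2.24 to 0.857, with 0.857 without samd7-/- replicate 3. These are the libraries where grk1a and rgs9b were at 0. Deviations of same-numbered libraries from their group means correlated at 0.05, -0.03 and 0.01, and not every library correlated best with its own number. Such deviations sum to 0 within each small group, so these values cannot decide whether same-numbered libraries were linked. With the replicate block 431 genes changed, 6 of the 8 genes among them. The scarcest of the 8 genes, grk1a and rgs9b, had at most 97 and 167 reads in a library, and whether depth or the spread between libraries kept them from passing was not tested.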
